A study of Homo sapiens with 4 samples.

Results

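Histone-rich cells are the cells of BT474 that carried the most message of 4 replication-dependent histone genes: HIST1H4C, which encodes histone H4, and HIST1H1D, HIST1H1B and HIST1H1E, which encode linker histones of the H1 family. A cell was a barcode with at least 5000 UMIs (unique molecular identifiers, each standing for 1 captured message), at least 500 detected genes and at most 50% mitochondrial UMIs. The histone score was the summed UMIs of the 4 genes per 10000 UMIs of the cell, and the top 10% of each library by that score were taken, which gave 1488 of 14867 cells. By library these were 424 of 4240 DMSO cells, 340 of 3394 fulvestrant cells, 344 of 3433 neratinib cells and 380 of 3800 cells given the combination.

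BT474 is an established breast cancer cell line with the estrogen receptor and amplified HER2 (ERBB2). There were 4 groups with 1 library each, all grown in RPMI 1640 with fetal bovine serum and treated for 4 h: DMSO, the vehicle; 100 nM fulvestrant, which blocks and degrades the estrogen receptor; 200 nM neratinib, which inhibits the kinases of the HER2 family irreversibly; and both drugs at those doses. The libraries were droplet libraries that count the 3' ends of messages. With 1 library per group there is no replicate error, so nothing is tested between groups, cells are not used as replicates, and every interval below is a 95% interval that covers counting error only.

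Replication-dependent histone genes are transcribed while DNA is copied, so that new nucleosomes can be packed behind the fork. Their messages usually end in a stem-loop held by the protein SLBP in place of a poly(A) tail, and they are destroyed when S phase ends. Linker histones of the H1 family bind where DNA enters and leaves the nucleosome. Because these libraries are primed on poly(A), they hold only the part of histone message that such priming catches, and near-identical histone genes can share reads, so levels are compared between cells and not between histone genes.

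The 4 libraries were of like depth, with 8.22e+07 to 1.02e+08 UMIs in cells. The median mitochondrial share of histone-rich cells was 15.8%, 16.5%, 19.8% and 19.8% in the order DMSO, fulvestrant, neratinib and both drugs, and of other cells 16.2%, 16.6%, 21.1% and 21.2%. Both libraries with neratinib thus stood above both without it in either kind of cell. Among 14845 distinct barcodes, 22 occurred in more than 1 library, and 4 histone-rich cells had such a barcode. The luminal markers KRT8, KRT18, KRT19, EPCAM, GATA3, FOXA1, SPDEF, ESR1 and ERBB2 were all measured in the histone-rich cells. Of 6 immune and 5 endothelial markers 0 reached a mean of 5 CPM (UMIs per 1e+06 UMIs of a sum), 2 of the immune markers were at 0 UMIs throughout, and their summed levels in histone-rich cells were 0.485 to 1.65 and 2.24 to 3.15 CPM. Of 6 fibroblast markers 2 were at 0 UMIs and only the collagen gene COL1A1 was measured, at 4.36 CPM in histone-rich and 12.5 CPM in other cells of DMSO.

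The values that chose the cells are a description and support nothing. The score at the 90th percentile, where the choice was made, was 13.7 [12.9, 14.2] for DMSO, 11.2 [10.8, 11.9] for fulvestrant, 14.3 [13.6, 14.8] for neratinib and 14.4 [13.9, 15.1] for the combination. The cells just inside and just outside that line stood at 13.677 and 13.666 in DMSO, and the scores of histone-rich cells ran on without a gap to 36.4 in that library. Their median scores were 17.8, 15.1, 17.3 and 17.8 in the order above, against 0.851, 0.835, 0.689 and 0.774 in other cells. Barcodes with 1 to 100 UMIs, which hold free RNA and no cell, had pooled scores of 2.57, 2.21, 2.59 and 2.64, close to the pooled scores of other cells at 2.47, 2.27, 2.54 and 2.65. The pooled histone level of other cells was thus near that of the free RNA, but it averages over unlike cells. Most other cells stood below the free RNA, by the medians above, and those just outside the line stood far above it. Histone-rich cells, pooled, were at 18.8, 16.1, 18.1 and 18.8. HIST1H4C gave 80.7% to 84.7% of the score UMIs of histone-rich cells. These cells held 48.9% to 50.3% of all HIST1H4C UMIs of the cells in each library.

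The share of cells past the DMSO line, read in every library, was 10% for DMSO by construction, 6.69% [5.87, 7.58] for fulvestrant, 10.9% [9.87, 12.0] for neratinib and 11.3% [10.3, 12.4] for the combination (exact Clopper-Pearson intervals). After each cell was thinned to 5000 UMIs, so that depth is equal, the shares were 11%, 8.07%, 11.7% and 11.4%. Fulvestrant alone was the lowest library in either reading, and the library with both drugs was not low. With 1 library per group, a lower share under fulvestrant cannot be told apart from a library difference.

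Histone-rich cells carried more RNA than other cells. Their median depth was 29881, 30432.5, 30203.5 and 29995.5 UMIs in DMSO, fulvestrant, neratinib and both drugs, against 21998.5, 22460.5, 21729 and 21468.5 in other cells, a ratio of 1.35 to 1.40. The median number of detected genes was 5174, 5228, 4907.5 and 4891.5 against 4402, 4445, 4139 and 4122.5. The greater depth was not particular to histone-rich cells. The 10% of cells next in score had median depths of 28932, 29700, 29172 and 29101 UMIs. Levels below are CPM of the UMIs summed over the cells of a kind in a library. A gene that is lower in CPM by less than the difference in mean UMIs per cell, 0.32 to 0.35 on the log2 scale, is thus not lower per cell. Doublets were not called, and 0% to 1.47% of histone-rich cells lay above 2 times their library's median UMIs, against 1.28% to 2.75% of other cells.

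Among histone genes that had no part in the choice, the largest ratios belonged to HIST2H2AC, HIST1H2AH and HIST1H1C. HIST2H2AC, an H2A gene of the cluster on chromosome 1, was at 54.4, 36, 56.0 and 57.0 CPM in histone-rich cells (DMSO, fulvestrant, neratinib, both drugs) and at 8.63, 6.79, 8.97 and 8.46 CPM in other cells. The fulvestrant library was the lowest in both kinds of cell. Its mean log2 ratio over the 4 libraries was 2.61 ± 0.15 (SD over libraries, n = 4), which is 6.12-fold. HIST1H2AH, another H2A gene, had 15.1, 11.7, 9.48 and 8.87 CPM against 2.12, 1.95, 1.53 and 1.49, and a log2 ratio of 2.66 ± 0.12. HIST1H1C, the remaining linker histone that was measured, had 113, 98.2, 119 and 113 CPM against 29, 28.2, 33.7 and 32.6, and a log2 ratio of 1.84 ± 0.08. In each library the pooled level of all 3 was higher in histone-rich cells. HIST1H2AG and HIST1H2BH, genes of H2A and H2B, had smaller ratios of 1.15 ± 0.36 and 1.09 ± 0.37, larger without neratinib (1.51 and 1.36 for HIST1H2AG, 1.36 and 1.46 for HIST1H2BH) than with it (1.00 and 0.72, 0.76 and 0.78).

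Other histone genes of the same clusters went the opposite way. HIST1H2AC, an H2A gene, was at 5.41, 6.31, 6.12 and 9.14 CPM in histone-rich cells and at 23.6, 24.7, 46.2 and 51.7 CPM in other cells, a log2 ratio of -2.38 ± 0.42. HIST1H2BD, an H2B gene, was at 1.78, 1.26, 2.77 and 1.97 CPM against 10.2, 10.5, 27.8 and 32.9, a log2 ratio of -3.24 ± 0.64 that rests on 13 to 28 UMIs per library in histone-rich cells. HIST1H4H, an H4 gene, had 3.47, 2.04, 2.77 and 2.96 CPM against 6.99, 7.22, 7.51 and 9.36, a log2 ratio of -1.48 ± 0.35. The 3 genes were thus lower in the cells chosen for high histone message. HIST3H2A, an H2A gene outside the main cluster, separated no kind of cell: it was at 22.4, 23.9, 60.1 and 55.7 CPM in histone-rich and at 22.6, 23.5, 53.0 and 53.4 CPM in other cells, higher in both neratinib libraries. In all, 11 of 67 replication-dependent histone genes outside the choice reached 5 CPM, and 5 of these were higher and 3 lower in histone-rich cells, each by at least 0.32 on the log2 scale with an interval off 0 in all 4 libraries, a rule called past the fold below. HIST1H2BC, HIST1H2BN and HIST3H2A made up the rest. Of all 9071 genes at that level 8.2% were higher and 5.49% lower by the same rule. The median log2 ratio of the 11 genes was 0.46 ± 0.39, and it was -0.01 when other cells were limited to those at or below the median score of their library.

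**Figure D1:**
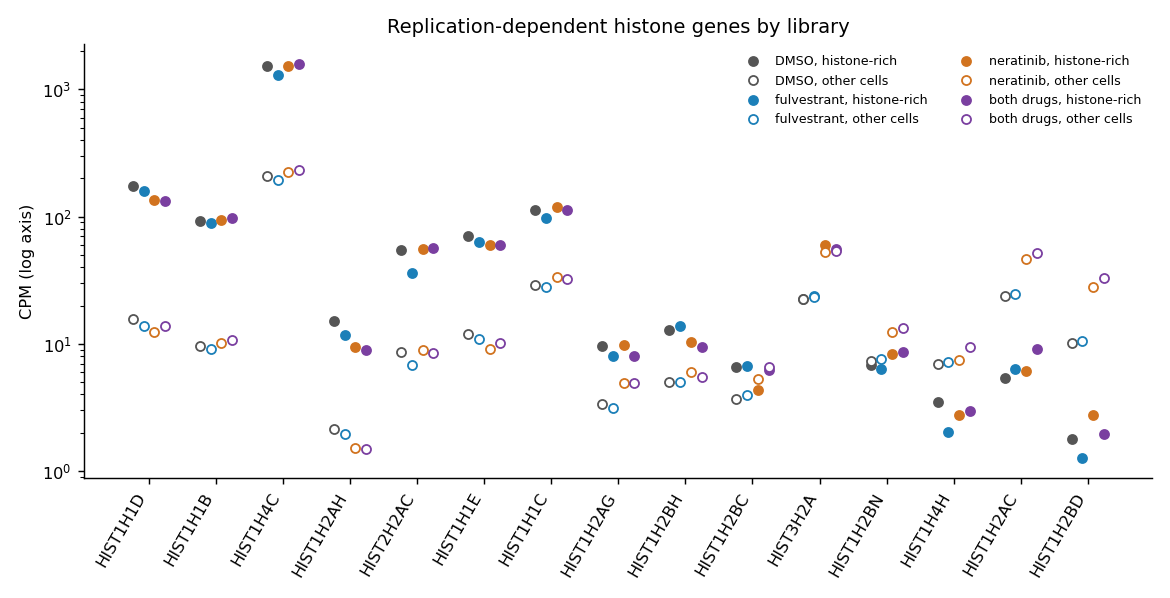
Level in CPM (log axis) of the 4 genes that chose the cells and of 11 other replication-dependent histone genes, summed over histone-rich cells (filled) and over other cells (open), with 1 pair of points per library. Genes are ordered by their ratio: HIST1H1D, HIST1H1B and HIST1H4C on the left were part of the choice, HIST2H2AC stood at 36 to 57.0 CPM in histone-rich cells, and HIST1H2AC and HIST1H2BD on the right were lower in them in every library.

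The promoters of HIST1H1D, HIST1H1B and HIST1H1E are shown because these genes chose the cells, so their high message is by construction. That of HIST1H1C is shown because its message was high without a part in the choice. The promoter of HIST1H2AC is shown because its message was low in the same cells. Each is the 150 bases before the annotated start, 5′ to 3′ on the gene's own strand, from the RefSeq annotation of GRCh38.p14. Capitals mark the motifs AAACACA, a repeat long known upstream of H1 genes, CCAAT, the NF-Y box, and TATAAA, on either strand.
HIST1H1D, chr6:26234988-26235137, minus strand: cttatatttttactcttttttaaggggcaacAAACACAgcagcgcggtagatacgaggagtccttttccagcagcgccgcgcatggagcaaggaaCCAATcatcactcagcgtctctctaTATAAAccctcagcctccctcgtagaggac
HIST1H1B, chr6:27867589-27867738, minus strand: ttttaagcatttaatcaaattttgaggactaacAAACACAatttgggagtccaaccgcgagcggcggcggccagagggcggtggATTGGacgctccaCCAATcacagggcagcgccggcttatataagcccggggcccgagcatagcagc
HIST1H1E, chr6:26156179-26156328, plus strand: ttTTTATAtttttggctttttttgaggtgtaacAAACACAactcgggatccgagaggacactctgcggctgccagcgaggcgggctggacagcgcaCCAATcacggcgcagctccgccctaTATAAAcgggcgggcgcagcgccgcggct
HIST1H1C, chr6:26056471-26056620, minus strand: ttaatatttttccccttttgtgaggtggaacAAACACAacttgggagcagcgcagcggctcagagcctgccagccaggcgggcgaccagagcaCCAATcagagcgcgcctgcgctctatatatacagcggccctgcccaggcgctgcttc
HIST1H2AC, chr6:26124022-26124171, plus strand: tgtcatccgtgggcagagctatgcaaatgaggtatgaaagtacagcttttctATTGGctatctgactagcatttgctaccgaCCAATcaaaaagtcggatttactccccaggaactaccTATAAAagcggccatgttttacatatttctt

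In all 4 linker histone promoters AAACACA began 117 to 119 bases before the start, and CCAAT followed 53 to 57 bases before it. The promoter of HIST1H2AC held CCAAT 68 bases before the start and no AAACACA in its 300 bases. RefSeq promoters of 300 bases (250 before and 50 after the start) matched 12 of the 15 measured histone genes by current symbol, and HIST1H4C, HIST1H2AH and HIST1H2BD were not matched. Of the 12, 5 held AAACACA on either strand (the 4 linker genes and HIST2H2AC, where it lies after the start), 11 held CCAAT and 6 held TATAAA. Over all 35116 promoters the shares were 5.64%, 34.6% and 11.5%, and 2.02% held both AAACACA and CCAAT. The NF-Y box was present in genes of either direction, and a match describes letters and not a bound factor.

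The ends of the annotated transcripts differed between genes. The histone stem-loop, 16 bases with 6 base pairs around a loop of 4 bases (capitals), was looked for in the GENCODE transcripts of the 15 genes and found in 6, against 0.127% of 19684 coding genes.
HIST1H2AC: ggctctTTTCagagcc
HIST1H2AG: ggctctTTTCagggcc
HIST1H2BH: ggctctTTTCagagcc
HIST1H4H: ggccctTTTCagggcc
The transcript ran on for 1114 bases past the stem-loop in HIST1H2AC and 630 in HIST1H4H, which were lower in histone-rich cells, and for 1761 in HIST1H2AG and 1640 in HIST1H2BH, which were higher. AATAAA, the common poly(A) signal, lay in the last 50 bases of the longest transcript of all 3 lower genes, HIST1H2AC, HIST1H4H and HIST1H2BD. Among genes higher in histone-rich cells it lay there in HIST1H2AG and HIST1H2BH, and it also lay there in HIST1H2BN, which was past the fold in neither direction. The annotated transcripts of HIST2H2AC, HIST1H2AH and HIST1H1C, and of the 4 genes that chose the cells, held neither AATAAA there nor the stem-loop. The longest annotated transcripts of these genes had 387 to 754 bases. Where an annotation stops near the end of the coding sequence neither could be found, and a stem-loop with other bases would be missed. This absence thus does not describe the message. Which of the ends was sequenced was not examined.

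Across all genes, 493 of 4945 with a mean of at least 20 CPM were higher in histone-rich cells (9.97%) and 170 lower (3.44%) by the same rule. An exact permutation test over 4 pairs of sums cannot go below 0.125, so the ratios are given for each library with no test. The 15 highest were HIST2H2AC, HIST1H1C, MND1, PRIM1, FAM111B, PKMYT1, RRM2, RAD51AP1, BRCA1, H1F0, FBXO5, TYMS, ATAD2, MCM10 and PCLAF. Several of them act in DNA replication (PRIM1, MCM10, PCLAF), nucleotide supply (RRM2, TYMS) or recombination (MND1, RAD51AP1, BRCA1). The levels of 3 of them show the pattern. PRIM1, the catalytic subunit of primase, was at 64.6, 60.4, 54.7 and 56.0 CPM against 21.2, 21.7, 16.7 and 16.9, a log2 ratio of 1.63 ± 0.12. RAD51AP1, a recombination protein, was at 52.2, 59.5, 70.4 and 64.4 CPM against 19.4, 20.3, 20.6 and 20.9 (1.59 ± 0.14). H1F0, a linker histone with a polyadenylated message that is best known from non-dividing cells, was at 171, 186, 195 and 198 CPM against 61.8, 65.4, 63.7 and 64.4 (1.55 ± 0.07). All 3 were higher in histone-rich cells of each library by the way they were chosen, and the ratio of H1F0 varied least between libraries.

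**Figure D2:**
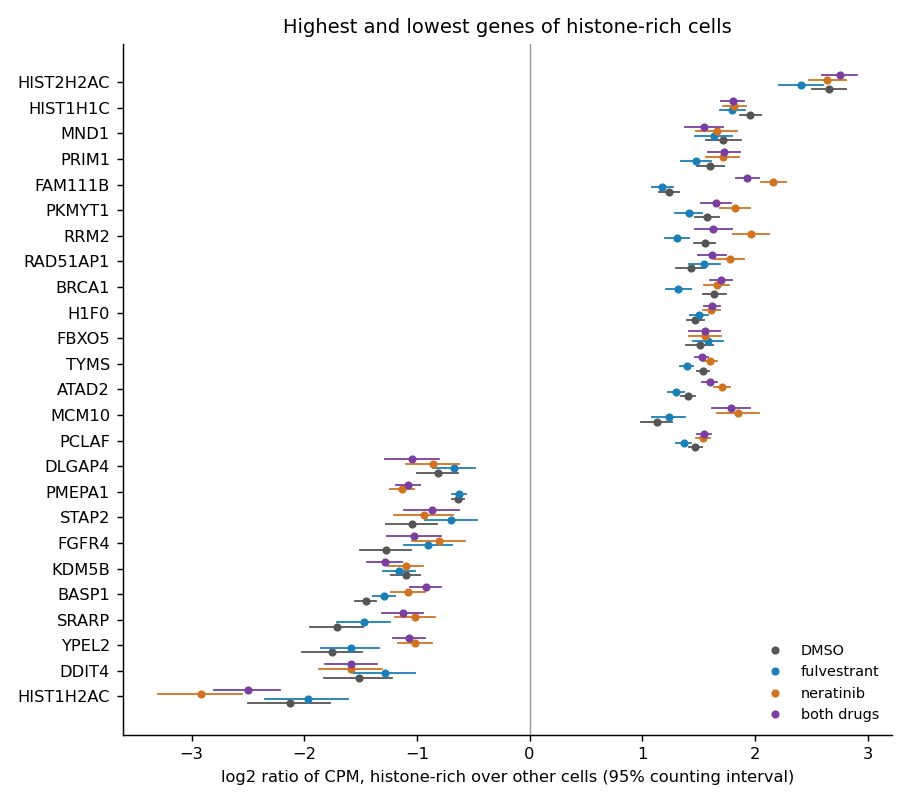
Log2 ratio of CPM, histone-rich over other cells, for the 15 highest and 10 lowest genes, with 1 point per library and 95% counting intervals as lines. Points of FAM111B, RRM2 and MCM10 lie farther right in the neratinib libraries (2.16 and 1.93 for FAM111B) than in the others (1.24 and 1.18), and HIST1H2AC is lowest of all at -1.97 to -2.91.

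Lists of S phase genes were higher nearly throughout, and the licensing, fork, nucleotide and repair lists had 0 lower members. In licensing and G1/S, the genes that load and fire replication origins, 21 of 22 measured members were higher and 0 lower. The median log2 ratio of the list was 1.16 ± 0.22 over the 4 libraries, beside -0.03 ± 0.01 for all 9071 measured genes. Of all these genes 8.2% were higher and 5.49% lower. The largest ratios of the list were E2F2 (1.73 ± 0.30), MCM10 (1.5 ± 0.37), CDT1 (1.47 ± 0.28) and CDC45 (1.40 ± 0.10). The exception was UNG, a uracil glycosylase, at 20.8, 20.5, 20.2 and 21.8 CPM against 23.6, 22.7, 21.4 and 23.6. PCNA, the sliding clamp of the polymerases, was at 405, 407, 429 and 437 CPM against 164, 177, 152 and 163, a log2 ratio of 1.35 ± 0.13.

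Of 30 genes of the replication fork 29 were higher and 0 lower, at a median of 1.01 ± 0.07. CLSPN, a checkpoint mediator at the fork, had a ratio of 1.42 ± 0.21, POLD3, a subunit of polymerase delta, 1.40 ± 0.07, and FEN1, the flap nuclease, 1.28 ± 0.14. In nucleotide supply 12 of 16 were higher and 0 lower (median 0.68 ± 0.04): RRM2, the S phase subunit of ribonucleotide reductase, TYMS, thymidylate synthase, DUT and TK1 led with ratios of 1.62 ± 0.27, 1.52 ± 0.09, 1.38 ± 0.05 and 1.33 ± 0.25. The 4 not past the fold were ATIC, GART, IMPDH2 and PAICS, at 0.02 to 0.31.

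S phase repair and checkpoint genes followed, with 22 of 25 higher and 0 lower at medians of 1.17, 1.0, 1.44 and 1.4 in the 4 libraries. EXO1, an exonuclease, was at 27.5, 27.6, 27.9 and 26.5 CPM in histone-rich cells against 9.17, 11.7, 6.73 and 7.11 in other cells, and BRCA1, the recombination mediator, at 96.8, 87.5, 100 and 114 against 31.0, 35.1, 31.6 and 35.1. ATR, MSH6 and PARP1 were not past the fold, at -0.10, 0.50 and 0.30. Of 19 genes of E2F and CDK control 12 were higher and 0 lower (median 0.64 ± 0.08). E2F8, a repressor of E2F targets, had the largest ratio, 18.6, 17.1, 18.6 and 18.6 CPM against 4.36, 4.42, 4.12 and 4.12 (2.10 ± 0.10), and its level in histone-rich cells was 17.1 to 18.6 CPM.

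The genes that handle histones themselves were less uniform. Among histone chaperones 13 of 22 were higher and 0 lower (median 0.54 ± 0.03). ASF1B, CHAF1B and CHAF1A, which hand new H3 and H4 to the fork, had ratios of 1.22 ± 0.18, 1.17 ± 0.32 and 1.16 ± 0.17, and NASP, which keeps a soluble pool of H3 and H4, 0.85 ± 0.09. HIRA, DAXX and ATRX, which place the replication-independent variant H3.3, were at -0.10, 0.15 and -0.26, none past the fold. In histone mRNA processing 2 of 13 were higher and 0 lower (median 0.21 ± 0.06): SLBP, the stem-loop binder, at 119, 115, 107 and 106 CPM against 76.3, 81.7, 56.6 and 61.3, and CASP8AP2, a partner of NPAT, with a ratio of 0.57 ± 0.13. NPAT, the activator of histone genes, was at 12.4, 10.2, 10.9 and 13.4 CPM against 7.53, 8.13, 8.92 and 10.1, on the higher side in every library without passing the fold in all 4. Beside the counts of these lists, 8.2% of all 9071 measured genes were higher and 5.49% lower, at a median of -0.03 ± 0.01. The high histone message of these cells is by the choice.

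Of 11 histone variants 5 were higher and 0 lower (median 0.47 ± 0.14). They were H1F0, H1FX (1.31 ± 0.03), H2AFX, H2AFZ (0.66 ± 0.04) and H2AFV (0.62 ± 0.07). H1FX, another replication-independent linker histone, was at 611, 629, 773 and 779 CPM in histone-rich cells against 253, 254, 313 and 305.

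Genes of G2 and mitosis split. Of 42 measured, 22 were higher and 2 lower in histone-rich cells, at a median of 0.47 ± 0.07. NDC80 of the kinetochore (1.27 ± 0.06), HMGB2, a chromatin protein (1.19 ± 0.11), AURKB, a kinase of the chromosomal passenger complex (1.18 ± 0.06), KIF11, a spindle motor (1.08 ± 0.04), and MKI67 (1.00 ± 0.04) were among the higher. CCNB1, the cyclin of mitotic entry, was at 98.6, 89.9, 88.6 and 75.7 CPM against 128, 113, 136 and 113, and ARL6IP1 had a ratio of -0.53 ± 0.13. CDC20 and PLK1, which act at mitosis itself, were at -0.58 ± 0.27 and -0.28 ± 0.15, not past the fold in all libraries. With a ceiling of 20% mitochondrial UMIs the median of the list was 0.18.

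Among cyclins, CCNE2, a cyclin of the G1/S step, was higher at 57.9, 59.9, 34.7 and 40.2 CPM against 27.4, 31.9, 12.1 and 14.7. CCND1, the cyclin of G1, was lower at 253, 175, 36 and 21.0 CPM against 324, 255, 46.5 and 32.0. CCNA2, which acts from S phase to mitosis, was at 51.7, 53.4, 45.4 and 52.3 CPM against 40.4, 36.4, 40.2 and 35.4, a log2 ratio of 0.41 ± 0.18. In all 2 of 7 cyclins were higher and 2 lower. DNA content was not measured here, so a position within S phase rests on transcripts alone.

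**Figure D3:**
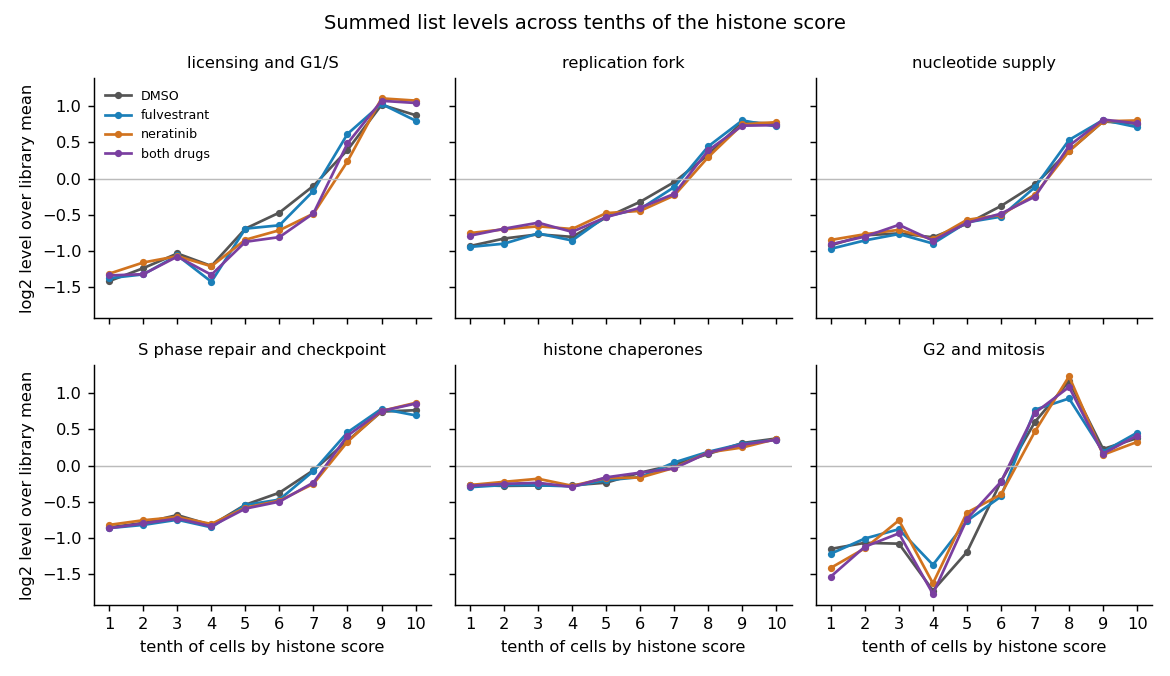
Summed level of 6 gene lists, as log2 over the mean of the library, in 10 equal bins of cells ranked by the histone score, with 1 line per library; the score chose the order, and the lists hold none of its genes. Lists of S phase are highest in bins 9 and 10, whereas G2 and mitosis is highest in bin 8 (1.17 in DMSO) and is at 0.23 in bin 9 and 0.38 in bin 10.

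The plot by score bin shows where the line at 10% fell. In DMSO the licensing list stood at 0.40, 1.02 and 0.88 in bins 8, 9 and 10, so the cells just below the line carried as much licensing message as those above it. The median score of bin 9 was 10.3, 8.75, 11.1 and 11.3 in the 4 libraries, against 3.53, 3.8, 3.29 and 3.74 in bin 8. G2 and mitosis was at 1.17, 0.93, 1.24 and 1.09 in bin 8 and at 0.38, 0.46, 0.33 and 0.42 in bin 10. Within the histone-rich cells the score had Spearman correlations of 0.18, 0.23, 0.19 and 0.24 across cells with the summed G2 and mitosis genes, and of -0.01, -0.08, -0.06 and -0.11 with licensing. These are descriptions over cells that share a library, over 340 to 424 cells each, and the correlation with UMIs per cell was -0.04, -0.04, -0.04 and -0.01.

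Cells picked by other phase markers overlapped with these only in part. The top 10% of each library by G1/S markers (CCNE1, CCNE2, E2F1, CDC6, CDT1, MCM genes, PCNA and others) held 72 of 424 histone-rich cells in DMSO, 17% [13.5, 20.9], and 14.1% [10.6, 18.3] for fulvestrant, 33.1% [28.2, 38.4] for neratinib and 29.7% [25.2, 34.6] for the combination. The top 10% by G2/M markers held 2.36%, 2.06%, 1.74% and 2.89%. A set drawn without regard to the score would share 10%. Thinned to 5000 UMIs per cell before both scores, the G1/S shares were 29.7%, 22.4%, 40.3% and 35.7% and the G2/M shares 4.09%, 4.58%, 2.25% and 4.38%. After thinning, ties at the line gave 1670 histone-rich cells. Marker sets can hold ties too, so 10% is only approximate for the thinned shares. In either reading the overlap with G1/S markers was larger in both libraries with neratinib than in both without it, and overlap with G2/M markers was below 10% in all.

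**Figure D4:**
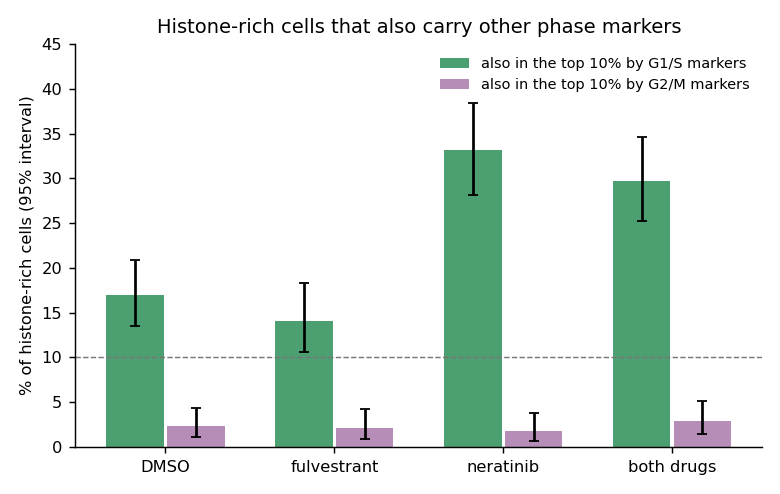
Share of histone-rich cells, in %, that were also in the top 10% of their library by G1/S markers (green) or by G2/M markers (purple), with exact 95% intervals as bars and the 10% expected of unrelated sets as a dashed line. The G1/S shares are 33.1% and 29.7% in the libraries with neratinib against 17% and 14.1% in those without.

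For TOP2A, CDK1 and FAM111B, cells that were only histone-rich lay between cells that were only in the G1/S set and cells that were only in the G2/M set. TOP2A, the topoisomerase that untangles copied DNA, was at 107, 302 and 623 CPM in the G1/S-only, histone-rich-only and G2/M-only cells of DMSO, and at 148, 358 and 766 CPM in neratinib. CDK1, the mitotic kinase, was at 139, 212 and 440 CPM in DMSO, and FAM111B, a replication-linked protease, at 258, 101 and 13.1. RRM2, at 160, 86.3 and 27.7 CPM, and BRCA1, at 99.1, 94.5 and 32.9 CPM, were also highest in the G1/S-only cells of DMSO. H1F0 did not follow this order: it was at 47.8, 180 and 84.9 CPM in DMSO and at 79.3, 203 and 76.9 CPM in neratinib, highest in the histone-rich cells. The same held for HIST1H1C, at 43.5, 112 and 25.5 CPM in DMSO. HIST1H2AC was at 3.70 and 5.21 CPM in the G1/S-only and histone-rich-only cells of DMSO, at 12.7 in G2/M-only cells and at 28.9 in the 3050 cells of none of these sets.

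The lowest genes of histone-rich cells after HIST1H2AC were DDIT4, YPEL2, SRARP, BASP1, KDM5B, FGFR4, STAP2, PMEPA1 and DLGAP4, with mean log2 ratios of -1.49 to -0.84. DDIT4, a stress-induced inhibitor of mTORC1, was at 7.92, 11.6, 11.1 and 14.3 CPM against 22.6, 28.1, 33.2 and 42.9. KDM5B, an H3K4 demethylase, was at 43.5, 42.7, 37.3 and 32.1 CPM against 93.3, 95.1, 80.0 and 78.2 (-1.16 ± 0.09). BASP1, a membrane-bound growth-associated protein, was at 85.9, 89.7, 38.8 and 40.8 CPM against 235, 219, 81.8 and 77.2 (-1.18 ± 0.23). All 3 were lower than in other cells by more than the difference in UMIs per cell. Of 9 luminal genes 0 were higher and 1 lower, the keratin gene KRT19 at 2260, 1979, 1245 and 809 CPM against 2994, 2794, 1585 and 1148. ERBB2 itself was at 788, 857, 738 and 694 CPM against 998, 1038, 981 and 938, a log2 ratio of -0.37 ± 0.07 that is about the difference in UMIs per cell. In MYC and ribosome biogenesis 2 of 24 were higher and 0 lower, and in estrogen receptor targets 3 of 18 higher and 1 lower, with medians of -0.10 ± 0.04 and -0.02 ± 0.02. Among ERK output 0 of 7 were higher and 1 lower, and among FOXO targets 2 of 18 higher and 1 lower. Beside these list counts, 8.2% of all 9071 genes with at least 5 CPM were higher and 5.49% lower.

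For fulvestrant there were 2 disjoint pairs of libraries: fulvestrant over DMSO, and both drugs over neratinib. Within histone-rich cells 7 of 4915 genes were higher (0.142%) and 22 lower (0.448%), past the fold in both pairs, against 5 (0.102%) and 20 (0.407%) in other cells. MYC, the growth-driving factor, was at 78.4, 14.1, 60 and 6.72 CPM in the usual order of libraries, log2 ratios of -2.48 [-2.74, -2.22] and -3.16 [-3.52, -2.81]. TSKU, a secreted proteoglycan, was at 71.4, 18, 59.6 and 6.54 CPM, and AREG, an EGFR ligand, at 91.9, 43.6, 34.7 and 10.7. GREB1, a receptor cofactor, was at 39.1, 22.2, 44.5 and 26.4 CPM and PGR, the progesterone receptor, at 135, 81.3, 167 and 99.8. MSX2, ZNF703, PMAIP1, SIAH2 and C6orf141 completed the 10 lowest. By the way they were chosen, each of these 10 was lower in both libraries with fulvestrant than in its partner without it. Among the 7 higher genes were INSIG1, HMGCS1, MSMO1 and HSD17B7, which act in sterol synthesis or its control, and the NADP-linked dehydrogenase gene IDH1. HMGCS1, a synthase of the mevalonate pathway, was at 73.9, 124, 72.1 and 109 CPM, log2 ratios of 0.74 and 0.59 beside 0.45 and 0.41 in other cells.

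Of 18 estrogen receptor targets 10 were lower and 0 higher in histone-rich cells, beside 13 and 0 in other cells, with medians of -0.62 and -0.69 beside -0.53 and -0.55. At the level of at least 5 CPM used for lists, 0.168% of 8917 genes were higher and 0.65% lower in histone-rich cells, and 0.101% and 0.639% in other cells. Of the licensing, fork, nucleotide, repair, chaperone and mitosis lists 0 members were past the fold with fulvestrant in either direction. Medians of licensing were 0.01 and 0.03 in histone-rich and 0.09 and 0.11 in other cells. The difference of the responses, histone-rich minus other cells, was past the fold in both pairs for 1 gene in each direction among 4945 (0.0202%). TSKU was lower by -0.32 [-0.57, -0.08] and -0.66 [-1.03, -0.29]. UBE2Q2, a ubiquitin-conjugating enzyme, was higher by 0.41 [0.15, 0.66] and 0.36 [0.01, 0.70]. The first TSKU value sits at the threshold of 0.32, and the TSKU call was lost with median-of-ratios scaling. Neither call was kept with the top 20% of cells. RARA, the retinoic acid receptor and an estrogen receptor target below 20 CPM, was at 24.4, 7.38, 16.8 and 4.21 CPM in histone-rich cells and 25, 11.6, 18.8 and 6.66 in other cells, a difference of -0.62 and -0.50 among 9066 genes of which 0.0882% were higher and 0.143% lower.

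Neratinib was read as neratinib over DMSO and as both drugs over fulvestrant. Within histone-rich cells 245 of 4915 genes were higher (4.98%) and 1196 lower (24.3%), against 291 (5.92%) and 1333 (27.1%) in other cells. Under total-count scaling the median gene itself was at -0.16 and -0.16 in histone-rich cells and at -0.18 and -0.17 in other cells, and with median-of-ratios scaling the counts within histone-rich cells were 543 higher and 587 lower, 48.1% higher in place of 17%. Small neratinib ratios should be read against that shift. EGR1, an immediate early factor, was at 58.2, 71.5, 4.25 and 3.14 CPM in DMSO, fulvestrant, neratinib and both drugs. CCND1 was at 253, 175, 36 and 21.0, and the phosphatase gene DUSP4 at 230, 219, 78.2 and 58.7. The other genes of the 10 lowest were PHLDA2, IFRD1, IER2, PLK2, IRX4, AREG and PMEPA1. At the level of at least 5 CPM used for lists, 5.88% of 8917 genes were higher and 24.1% lower in histone-rich cells, and 8.02% and 28.5% in other cells. All 7 measured genes of ERK output were lower, with medians of -2.63 and -3.06 beside -2.80 and -3.00 in other cells.

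The highest ratios with neratinib were TNFSF10, CREBRF, HBP1, KLHL24, FBXO32, YPEL3, FBXL20, YPEL2, GLUL and PNRC1. TNFSF10, the death ligand TRAIL, was at 6.54, 6.90, 39.7 and 33.2 CPM, log2 ratios of 2.60 [2.25, 2.96] and 2.27 [1.90, 2.65]. HBP1, a repressor of cell cycle genes, was at 21.5, 24.9, 106 and 111 CPM and FBXO32, a ubiquitin ligase subunit, at 13.0, 12.2, 50.9 and 43.0. Of 18 FOXO targets 13 were higher and 1 lower, with medians of 1.02 and 0.86 beside 1.17 and 1.08 in other cells. In MYC and ribosome biogenesis 19 of 24 were lower and 0 higher, at medians of -1.0 and -0.60. BRD8, a bromodomain subunit of the TIP60 complex named in the title of the series, was at 26.1, 29.2, 56.0 and 59.1 CPM in histone-rich cells and 22.9, 21.4, 59.4 and 58.9 in other cells. Its neratinib ratios were 1.10 and 1.01 in histone-rich and 1.37 and 1.46 in other cells, differences of -0.27 [-0.48, -0.06] and -0.45 [-0.66, -0.23]. The first of these lies inside the fold and the second past it.

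Licensing and G1/S genes differed less with neratinib in histone-rich cells than in other cells. Of 22 licensing and G1/S genes 4 were lower with neratinib in histone-rich cells and 13 in other cells, with medians of -0.06 and -0.06 against -0.37 and -0.37. Of all 8917 genes 24.1% were lower in histone-rich cells and 28.5% in other cells. The difference itself was past the fold in both pairs, with the ratio higher in histone-rich cells, for 9 of the 22, beside 0.585% of 9066 genes. FAM111B, which is not in that list, was at 118, 123, 105 and 108 CPM in histone-rich cells and at 49.9, 54.3, 23.6 and 28.4 in other cells. The differences were 0.92 [0.78, 1.06] and 0.75 [0.62, 0.89]. MCM10, an initiation factor, was at 44.4, 48.1, 35.3 and 38.9 CPM against 20.3, 20.4, 9.78 and 11.3. CDC6, a licensing factor, was at 38.9, 39.5, 30.5 and 36.8 CPM against 19.3, 24.3, 11.4 and 14.2. With median-of-ratios scaling FAM111B in histone-rich cells stood at 0.01 and -0.02, and in other cells at -0.91 and -0.77. In other cells a sum is taken over all phases, and fewer cells of a phase cannot be told apart from less message per cell. The overlap with the G1/S set differed too: 33.1% and 29.7% of histone-rich cells were in it with neratinib, against 17% and 14.1% without. Both sets are the top 10% of their own library, so their lines move between libraries. Whether the make-up of histone-rich cells differed was not tested. In histone-rich cells of the G1/S set FAM111B was at 212, 214, 136 and 140 CPM. In cells that were only histone-rich it was at 101, 111, 91.0 and 97.0 CPM. In the cells that were only in the G1/S set FAM111B was at 258, 255, 137 and 159 CPM.

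RRM2, CCNE2 and CLSPN were lower with neratinib in histone-rich cells. RRM2 was at 99.9, 93.7, 47.7 and 38.3 CPM in histone-rich cells, log2 ratios of -1.07 [-1.22, -0.91] and -1.29 [-1.46, -1.13] beside -1.48 and -1.61 in other cells. CCNE2 was at -0.74 and -0.57 and CLSPN at -0.67 and -0.89. Of 30 fork genes 6 were lower in histone-rich and 11 in other cells, and of 16 nucleotide genes 5 and 6. Of all 8917 genes 24.1% were lower in histone-rich and 28.5% in other cells. Medians in histone-rich cells were -0.11 and -0.19 for the fork and -0.32 and -0.24 for nucleotides, beside -0.17 and -0.17 for all genes. In repair and checkpoint 2 of 25 were higher and 3 lower within histone-rich cells, beside 5.88% and 24.1% of all genes. The difference was higher in histone-rich cells for 6 of 25, beside 0.585% of 9066 genes, namely EXO1, BLM, DTL, UHRF1, XRCC2 and MSH6. The 2 genes higher with neratinib were WEE1, the kinase that restrains CDK1, at 124, 132, 179 and 183 CPM, and DTL, a substrate receptor for CDT1 degradation, at 17.4, 21.7, 25.5 and 28.0 CPM against 10.5, 12.0, 6.93 and 9.58 in other cells. DTL thus had neratinib ratios above 0 in histone-rich cells (0.55 and 0.37) and below 0 in other cells (-0.60 and -0.32).

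**Figure D5:**
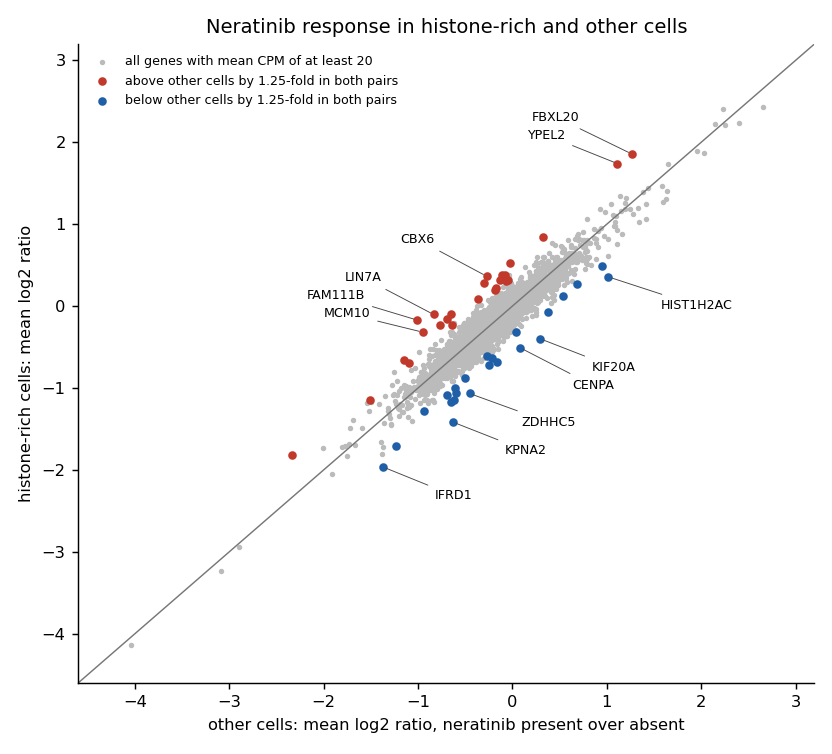
Mean log2 ratio with neratinib over the 2 pairs in other cells (horizontal) and histone-rich cells (vertical) for each gene with a mean of at least 20 CPM, with the line of equal response. Red and blue points mark the 25 genes above and 23 below the line, past the fold in both pairs; FAM111B, LIN7A, CBX6 and MCM10 are above it, and KPNA2, KIF20A and HIST1H2AC below.

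Over all genes the difference of the neratinib response was higher in histone-rich cells for 25 of 4945 (0.506%) and lower for 23 (0.465%). Of these 48, 22 were kept with the top 5% of cells, 29 with the top 20%, 28 with the score taken without HIST1H4C, 24 at the ceiling of 20% mitochondrial UMIs and 31 with cells thinned to 5000 UMIs. The 6 highest were FAM111B, LIN7A, CBX6, MCM10, YPEL2 and FBXL20, and the 6 lowest KPNA2, KIF20A, HIST1H2AC, ZDHHC5, IFRD1 and CENPA. KPNA2, an importin, was at 176, 151, 67.7 and 55.1 CPM in histone-rich cells against 186, 163, 122 and 104 in other cells, differences of -0.76 [-0.89, -0.63] and -0.81 [-0.95, -0.67]. KIF20A, a motor of cytokinesis, was at 23.6, 26.1, 19.1 and 18.6 CPM against 18.6, 17.4, 22.6 and 21.4, and CENPA, the centromeric H3 variant, at 49.4, 49.1, 35.6 and 33.7 against 46.7, 41.8, 53.0 and 41.1. CDC20 belonged to the lower genes too, at 65.0, 60.3, 31.8 and 28.2 CPM against 84.5, 75.0, 57.6 and 48.0. Within histone-rich cells CENPA and CDC20 were past the fold in both pairs, and KIF20A, at -0.31 and -0.49, was not. For these genes too, a different mix of phases among histone-rich cells cannot be told apart from less message per cell. Of the 42 genes of G2 and mitosis 7 were higher and 4 lower within histone-rich cells, beside 5.88% and 24.1% of all 8917 genes. Of the histone-rich cells in the neratinib libraries, 181 of 344 and 196 of 380 were under the ceiling of 20% mitochondrial UMIs. With that ceiling the histone-rich cells were chosen anew by score, which gave 935 over all libraries in place of 1488. In that setting the neratinib difference was lower in histone-rich cells for 115 genes in place of 23.

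Histone genes closed the comparison. With neratinib HIST1H2AC had ratios of 0.18 [-0.34, 0.70] and 0.53 [0.07, 1.01] in histone-rich cells and 0.97 and 1.06 in other cells. Of 11 histone genes outside the choice the difference was lower in histone-rich cells for 4, HIST1H2AC, HIST1H2BC, HIST1H2BH and HIST1H2AG, beside 0.662% of 9066 genes. HIST1H2BC, an H2B gene, was at 6.54, 6.70, 4.35 and 6.27 CPM in histone-rich cells and at 3.66, 3.99, 5.29 and 6.58 in other cells. HIST3H2A was higher with neratinib in both kinds of cell, at 1.42 and 1.22 in histone-rich and 1.23 and 1.19 in other cells. HINFP, a transcription factor of H4 genes, was at 7.11, 6.70, 11.7 and 13.3 CPM in histone-rich cells, and LSM10, a subunit of the U7 particle that trims histone messages, at 44.4, 47.7, 21.6 and 17.3. Of the genes that chose the cells, HIST1H1B was at 92.6, 89.2, 94.9 and 97.0 CPM and HIST1H1D at 173, 158, 134 and 132.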

How the data were processed

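Single-cell UMI counts of 4 BT474 libraries were used, as whole-number counts per gene and barcode that the authors deposited for 33538 features. Cell Ranger 3.1.0 and hg19 are named in the submitters' processing notes, with no further detail. Barcode suffixes 1 to 4 were taken as DMSO, fulvestrant, neratinib and both drugs. Members and gene lists were chosen with earlier results of these data known. UMIs were summed over histone-rich and over other cells of each library and scaled to CPM of all UMIs. Log2 ratios have exact conditional binomial 95% intervals, and differences of drug ratios have Wald intervals on the 4 counts, with at least 10 UMIs in each sum. A gene was past the fold at a ratio of at least 1.25 with the interval off 0, in all 4 libraries or in both disjoint drug pairs, at a mean of at least 20 CPM (5 for lists). Named genes were the 15 highest and 10 lowest in histone-rich cells, the 10 highest and 10 lowest per drug, the 6 highest and 6 lowest differences, 12 genes always named, measured histone genes, and up to 6 genes per list by size of ratio. List members named beside these, such as those not past the fold, were chosen after their values were seen. Doublets were kept and no caller was run. Alternatives changed the score, the share of cells, depth, the mitochondrial ceiling, scaling, minimum and fold. The scripts were tested on simulated counts and run with Python 3.11.15, numpy 2.4.6, scipy 1.17.1 and pandas 2.3.3. Some genes that the rule names are not reported here.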

Additional observations from a re-analysis of the deposited data

Results flagged for a closer look

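Among the named genes and the members of the gene lists, 40 differences of a drug response between histone-rich and other cells were past the fold in both disjoint pairs. In 13 of them the drug ratio had opposite signs in the kinds of cell in both pairs, 2 with fulvestrant and 11 with neratinib. The difference was not tested because each group is 1 library. With fulvestrant these were UBE2Q2, a ubiquitin-conjugating enzyme, with ratios of 0.38 and 0.26 in histone-rich cells and -0.03 and -0.10 in other cells (mean difference 0.38), and CCNF, cyclin F, with 0.23 and 0.26 against -0.16 and -0.23 (mean difference 0.44).

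With neratinib 8 genes were above 0 in histone-rich and below 0 in other cells. DTL, a substrate receptor for CDT1 degradation, had the largest mean difference of the 8, 0.92, and CBX6, a Polycomb subunit, had ratios of 0.35 and 0.38 against -0.22 and -0.33, a mean difference of 0.64. The other mean differences were 0.51 for E2F2, 0.49 for XRCC2, 0.46 for CDT1, 0.45 for GINS2, 0.39 for BLM and 0.37 for MCM5. The opposite order held in 3 genes. KIF20A, the motor of cytokinesis, had ratios of -0.31 and -0.49 against 0.28 and 0.30 (mean difference -0.69), HIST1H2BC -0.59 and -0.10 against 0.53 and 0.72 (-0.97), and HIST1H2BH -0.33 and -0.55 against 0.27 and 0.13 (-0.64).

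Of the 13, 7 had a mean of at least 20 CPM: UBE2Q2, CBX6, CDT1, GINS2, KIF20A, MCM5 and XRCC2. With median-of-ratios scaling 8 kept opposite signs, and BLM, CDT1, MCM5, XRCC2 and HIST1H2BC did not. All 4 intervals were off 0 in 3 genes under total-count scaling, DTL, CBX6 and KIF20A, and of these in DTL alone under both scalings.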

How the results depend on the processing

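No paired analysis was possible because each group had 1 library. Higher genes in histone-rich cells numbered 493, and 744 at 5 CPM, 802 with no minimum and 224 at 1.5-fold. Lower genes numbered 170, and 386 against other cells at or below the median score, 498 at 5 CPM, 688 with no minimum and 27 at 1.5-fold. Leaving out a library gave 513 to 523 higher and 197 to 209 lower. The licensing median (1.16) was 1.63 with the top 20% and 2.17 against cells at or below the median score. The fork median (1.01) was 0.90 with the top 5%, 1.34 with the top 20%, 1.11 without HIST1H4C, 0.92 at the 20% mitochondrial ceiling and 1.76 against cells at or below the median score. The G2 and mitosis median (0.47) was 0.36 without HIST1H4C, 0.18 at the ceiling and 1.48 against cells at or below the median score. The median of other histones (0.46) was 0.87 with the top 5% and -0.0081 against cells at or below the median score, and the cause was not tested. Leaving out a library gave 1.09 to 1.24, 0.98 to 1.03, 0.44 to 0.50 and 0.33 to 0.59. Fulvestrant gave 7 higher, and 15 with the top 5%, 15 at 5 CPM, 23 with no minimum and 2 at 1.5-fold. It gave 22 lower, and 58, 73 and 11 in the latter settings. The fulvestrant difference was higher in 1 gene, and in 3 with the top 5%, 0 with the top 20%, 0 with HIST1H4C alone, 0 thinned, 5 with mitochondrial UMIs left out of the total, 8 at 5 CPM, 10 with no minimum and 0 at 1.5-fold. It was lower in 1 gene, and in 5 with the top 5%, 0 with the top 20%, 2 with HIST1H4C alone, 2 without it, 3 at the ceiling, 0 with median-of-ratios scaling, 2 with mitochondrial UMIs left out, 3 against cells at or below the median score, 13 at 5 CPM, 14 with no minimum, 0 at 1.5-fold and 2 with the DMSO line in all libraries. Neratinib gave 245 higher, and 543 with median-of-ratios scaling, 384 with mitochondrial UMIs left out, 524 at 5 CPM, 718 with no minimum and 79 at 1.5-fold. It gave 1196 lower, and 587 with median-of-ratios scaling, 2145 at 5 CPM, 2417 with no minimum and 389 at 1.5-fold. The neratinib difference was higher in 25, and in 49 against cells at or below the median score, 53 at 5 CPM, 60 with no minimum and 2 at 1.5-fold. It was lower in 23, and in 115 at the ceiling, 37 with mitochondrial UMIs left out, 44 against cells at or below the median score, 60 at 5 CPM, 70 with no minimum and 1 at 1.5-fold. With mitochondrial UMIs left out the 90th percentile of the score was 16.3, 13.6, 17.9 and 18.3 in DMSO, fulvestrant, neratinib and both drugs. It was 12.0 for fulvestrant when thinned, and 15.8 and 16.3 for neratinib and both drugs at the ceiling. Shares past the DMSO line were 8.07% for fulvestrant when thinned, 14.3% and 14.6% for neratinib and both drugs at the ceiling, and 12.3% and 12.5% with mitochondrial UMIs left out. Over genes named singly, 1443 values moved by less than their interval or kept their call, 128 moved and 0 reversed. Counting error covers the depth only, and with 1 library per group no spread between cultures is known.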
